A study of Mus musculus with 7 samples.

Results

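Binding of retinoic acid receptor α (RARα) was compared with binding of retinoid X receptor α (RXRα) in mouse liver under a diet containing retinoic acid (RA). The comparison rests on the 2 peak lists called by chromatin immunoprecipitation followed by sequencing (ChIP-seq) from these livers. The RARα list held 44296 peaks and the RXRα list 59624, which is 103920 of the 245004 peaks in the 6 lists of the series. Peaks with 1 bp or more in common between the lists are called shared, and the rest RARα-only or RXRα-only. The mice of all libraries were male C57BL/6 aged 3 months, and the diet was given for 1 day according to the labels. The other 4 lists are RARα and RXRα under the control diet and RARβ under either diet. Each receptor and diet has 1 library of whole liver, so every difference below describes these libraries and has no replicate check. How deeply each list was sequenced could not be established. The study's text gives totals by receptor without the diet, the higher total being that of RARα, which has the shorter list. The Wilson 95% intervals on shares cover counting error only.

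RARα is a nuclear receptor whose ligand is all-trans RA. It binds DNA as a dimer with RXRα, usually at direct repeats of the half-site AGGTCA. RXRα is the common partner of many other nuclear receptors of the hepatocyte, among them the lipid sensor PPARα, the oxysterol receptor LXR, the bile acid receptor FXR and the xenobiotic receptors PXR and CAR. Repeats with 5 bases between the half-sites (DR5) are the classical element of the RARs, and repeats with 1 base between them (DR1) that of PPARα.

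The promoters below are shown because they carry the classes compared here. Each run is the 250 bases before an annotated gene start, read 5′ to 3′ on the gene's strand from the RefSeq promoter table of GRCm38.p6, the build of the peaks. Capitals mark, on either strand, the half-site AGGTCA, the GC box GGGCGG, the ETS core CCGGAAG, and repeats of relaxed half-sites, in which the first base may be A or G and the third G or T. The starts of Cyp26a1 and Rarb, both classical RAR targets, lay in shared peaks, and each has a DR5 in capitals, with its first base at -32 in Cyp26a1 and at -53 in Rarb.
Cyp26a1, chr19:37697558-37697807, plus strand: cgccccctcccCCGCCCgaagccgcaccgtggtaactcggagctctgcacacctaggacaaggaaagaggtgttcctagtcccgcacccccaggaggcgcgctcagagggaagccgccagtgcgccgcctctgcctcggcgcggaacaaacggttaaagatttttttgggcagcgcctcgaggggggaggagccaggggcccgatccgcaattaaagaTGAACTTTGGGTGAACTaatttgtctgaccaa
Rarb, chr14:16575477-16575726, minus strand: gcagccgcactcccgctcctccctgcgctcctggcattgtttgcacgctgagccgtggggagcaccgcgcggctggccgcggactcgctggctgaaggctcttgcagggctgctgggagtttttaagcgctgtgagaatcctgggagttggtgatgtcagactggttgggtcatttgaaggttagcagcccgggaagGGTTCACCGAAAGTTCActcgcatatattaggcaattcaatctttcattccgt
Sardh and Nfe2l2 had high-scoring shared peaks at the start. Sardh encodes sarcosine dehydrogenase, and Nfe2l2 encodes the oxidative stress regulator NRF2. Sardh has 1 half-site, whereas Nfe2l2 has an ETS core and GC boxes.
Sardh, chr2:27247304-27247553, minus strand: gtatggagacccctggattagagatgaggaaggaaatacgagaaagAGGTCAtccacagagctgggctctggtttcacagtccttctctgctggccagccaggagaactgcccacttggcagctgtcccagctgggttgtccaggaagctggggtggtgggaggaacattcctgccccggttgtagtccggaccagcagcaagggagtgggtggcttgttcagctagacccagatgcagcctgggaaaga
Nfe2l2, chr2:75704664-75704913, minus strand: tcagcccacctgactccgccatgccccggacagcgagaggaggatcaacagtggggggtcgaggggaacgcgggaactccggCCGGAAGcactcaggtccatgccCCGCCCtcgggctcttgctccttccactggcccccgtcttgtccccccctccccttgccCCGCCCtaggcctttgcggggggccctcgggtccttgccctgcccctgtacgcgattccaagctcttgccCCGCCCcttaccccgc
Fth1 and Slc25a30 lay among the highest-scoring RARα-only peaks. Fth1 encodes the ferritin heavy chain and Slc25a30 a mitochondrial carrier. In both promoters the capitals are GC boxes, and no half-site was found.
Fth1, chr19:9982396-9982645, plus strand: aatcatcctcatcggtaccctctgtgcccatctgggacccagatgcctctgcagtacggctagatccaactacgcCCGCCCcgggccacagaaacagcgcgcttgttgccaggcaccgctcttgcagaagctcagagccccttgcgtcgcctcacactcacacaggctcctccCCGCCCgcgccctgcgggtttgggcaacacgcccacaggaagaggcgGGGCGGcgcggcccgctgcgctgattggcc
Slc25a30, chr14:75787038-75787287, minus strand: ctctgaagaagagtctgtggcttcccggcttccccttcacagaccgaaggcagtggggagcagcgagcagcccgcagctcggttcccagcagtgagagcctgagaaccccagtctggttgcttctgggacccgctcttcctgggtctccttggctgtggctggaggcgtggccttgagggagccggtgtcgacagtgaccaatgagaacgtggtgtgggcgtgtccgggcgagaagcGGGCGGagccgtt
Slc25a47, a mitochondrial carrier of the liver, and Bco1, the enzyme that cleaves β-carotene to retinal, had RXRα-only peaks at the start. Slc25a47 has 1 half-site in capitals, on the opposite strand. Bco1 has a DR1 with its first base at -56, and an ETS core.
Slc25a47, chr12:108850879-108851128, plus strand: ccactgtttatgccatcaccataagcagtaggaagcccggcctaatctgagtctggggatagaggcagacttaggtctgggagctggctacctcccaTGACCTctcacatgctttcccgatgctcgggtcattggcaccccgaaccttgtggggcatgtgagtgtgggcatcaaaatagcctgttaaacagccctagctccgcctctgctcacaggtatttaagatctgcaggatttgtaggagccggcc
Bco1, chr8:117095615-117095864, plus strand: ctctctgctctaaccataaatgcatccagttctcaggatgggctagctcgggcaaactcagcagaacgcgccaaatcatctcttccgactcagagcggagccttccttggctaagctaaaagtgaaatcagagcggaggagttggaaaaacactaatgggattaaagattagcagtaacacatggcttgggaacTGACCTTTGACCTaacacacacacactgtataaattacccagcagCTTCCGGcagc

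Most RARα peaks coincided with RXRα, and RXRα had the larger set of its own. Of the RARα peaks, 28015 (63.2%, interval 62.8 to 63.7) were shared and 16281 (36.8%) were RARα-only. Of the RXRα peaks, 27755 (46.6%, interval 46.1 to 47.0) were shared and 31869 (53.4%) were RXRα-only. The shared peaks formed 28584 overlapping pairs, and in 25903 of these neither peak overlapped another. In such pairs the midpoints were a median of 70 bp apart.

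The amount of sharing depended on the length of the lists. Lists were ordered by the score of the peak caller, which rises as the p-value of a peak falls and is not on 1 scale in both lists, so that ranks and not scores are set against each other. With the RXRα list cut to the 44296 highest-scoring peaks, which set a lowest score of 83.63 and removed 15328 peaks, 54.5% of RARα peaks and 53.3% of RXRα peaks were shared. With scores of at least 100 in both lists, the shares were 51.7% and 35.0%. That limit does not stand at the same rank in both lists, since it kept 26606 RARα and 39259 RXRα peaks. Among the 10000 highest-scoring peaks of each list, 1414 peaks of either list (14.1%) overlapped the other list. The best peaks of 1 receptor were therefore mostly not among the best peaks of the other, although they were mostly called there. In the top score decile of each full list, the highest-scoring 10% of its peaks, 83.0% of RARα peaks and 83.9% of RXRα peaks were shared.

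Below the top decile the receptors differed. The RARα share fell to 69.1% in the second decile, and lay between 58.1% and 62.7% in every decile from 3 to 10. The RXRα share fell at each step, from 68.5% in the second decile to 25.1% in decile 10.

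**Figure D1:**
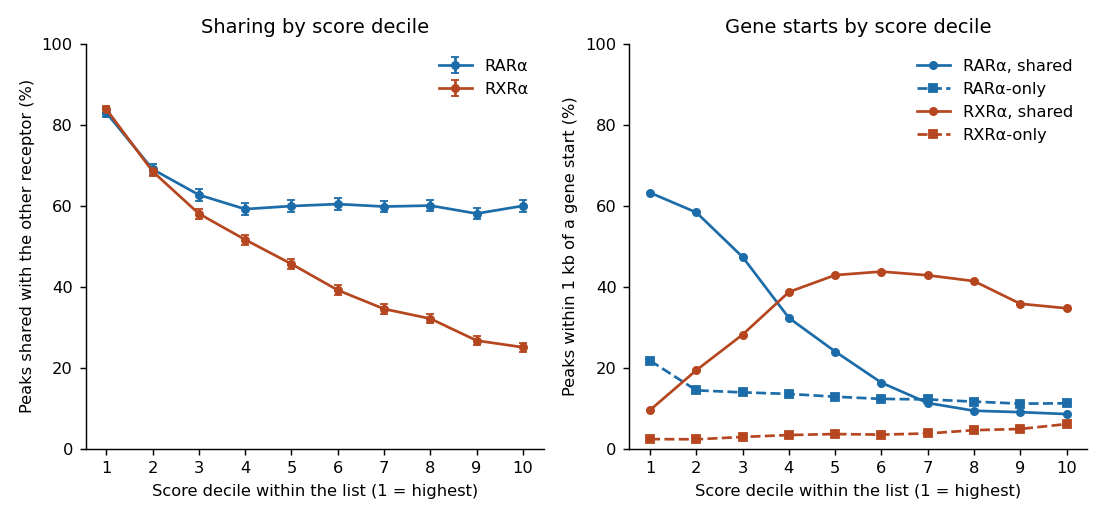
Left, the percentage of peaks shared with the other receptor (y axis) in each decile of a list ordered by score (x axis, 1 is the highest), with Wilson 95% intervals; the RARα line levels near 60% and the RXRα line falls to 25.1%. Right, the percentage within 1 kb of a gene start for shared (solid) and receptor-only (dashed) peaks; the shared RARα line falls from 63.3% to 8.58%, while the shared RXRα line starts at 9.58% and reaches 43.8% in the sixth decile.

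Shared peaks were found at gene starts far more often than peaks of RXRα alone. Of the shared RARα peaks, 29.8% (interval 29.3 to 30.4) had midpoints within 1 kb of the nearest protein-coding start, against 13.0% (12.5 to 13.5) of RARα-only peaks. Of the shared RXRα peaks it was 30.3% (29.7 to 30.8), against 4.09% (3.88 to 4.31) of RXRα-only peaks. The RXRα-only peaks had the longest median distance to a start, 26.7 kb, compared with 20.7 kb for RARα-only and 12.6 kb for shared RARα peaks. Seen from the starts, 79.9% of the RARα peaks and 86.6% of the RXRα peaks within 1 kb were shared. The order of the RARα classes turned among the 10000 highest-scoring peaks of each list, where the classes were formed anew between the cut lists. There 49.8% of RARα-only and 45.7% of shared RARα peaks lay within 1 kb, against 4.78% of RXRα-only peaks. A RARα-only peak of this setting may overlap an RXRα peak of lower rank. With the classes of the full lists, 63.3% of shared and 21.8% of RARα-only peaks in the top RARα decile lay within 1 kb. In the lowest decile it was 8.58% and 11.2%. At distances beyond 1 kb shared peaks made up 57.4% to 60.7% in the full lists for RARα and 36.6% to 39.8% for RXRα.

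**Figure D2:**
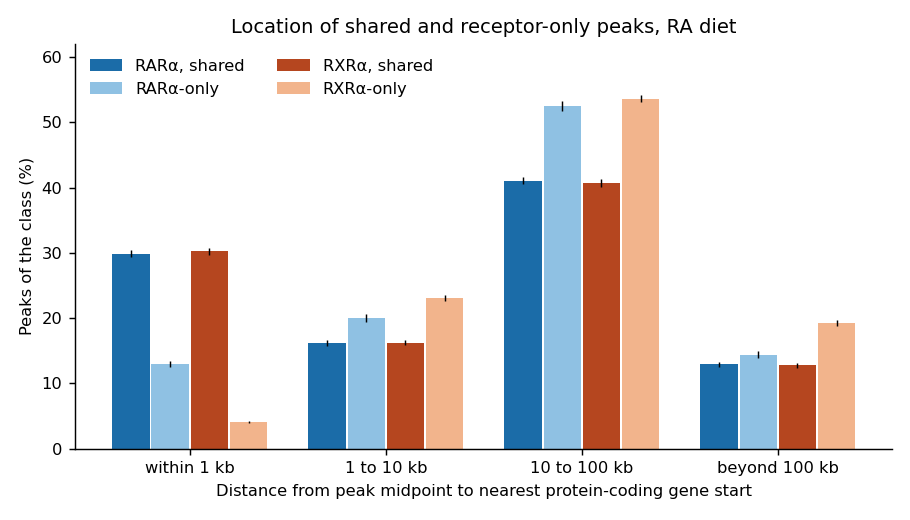
Percentage of the peaks of each class (y axis) by distance from the peak midpoint to the nearest protein-coding gene start (x axis), with Wilson 95% intervals. Within 1 kb the shared classes reach 29.8% and 30.3%, RARα-only 13.0% and RXRα-only 4.09%, while the receptor-only classes are higher in the bin from 10 to 100 kb.

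The receptors also ordered their shared sites differently. Among the 1-to-1 pairs within 1 kb of a start, the median RARα peak stood at the top 19.6% of its list and the median RXRα peak at the top 45.8%, and RARα had the higher rank in 78.9% of 7414 pairs. Among the 14239 pairs beyond 10 kb, the medians were 58.3% for RARα and 26.1% for RXRα, and RARα had the higher rank in 25.8%. Across all 25903 pairs the Spearman rho of the scores was -0.08, and it was 0.25 within 1 kb and 0.04 beyond 10 kb. These are descriptions across peaks, which share 2 libraries and are not replicates.

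The same turn was seen within each list. The share of shared RARα peaks lying within 1 kb of a start was 63.3% in the top decile by score and 8.58% in the lowest. The share of shared RXRα peaks there was 9.58% in the top decile, 43.8% in the sixth and 34.7% in the lowest. RXRα-only peaks stayed between 2.34% and 6.11% in all deciles.

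Peak width moved with the classes. The median width was 519 bp for shared and 369 bp for RARα-only peaks, and 691 bp for shared and 481 bp for RXRα-only peaks. Median scores were 131 and 112 in the RARα list and 218 and 108 in the RXRα list, shared peaks first. A wider peak meets another peak more readily, and with every peak replaced by a 300 bp window on its midpoint 57.3% of RARα and 42.4% of RXRα peaks were shared. On autosomes the RARα share ranged from 61.6% to 66.6% and the RXRα share from 44.4% to 49.9%, whereas on chromosome X they were 47.7% and 34.1%.

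Most receptor-only peaks were called for the same receptor under the control diet as well. Of the RARα-only peaks, 65.6% overlapped a peak of the RARα control list and 14.7% one of the RXRα control list. Of the RXRα-only peaks, 73.0% overlapped the RXRα control list and 9.27% the RARα control list. The shared peaks overlapped the control list of the same receptor in 71.2% of cases for RARα and 89.6% for RXRα. With scores of at least 100, and the classes formed anew between the cut lists, the 4 values were higher. They were 87.2% for shared RARα and 88.8% for RARα-only peaks, and 96.4% and 92.2% for RXRα, so the order of the RARα classes turned. In the top decile of the full RARα list the values were 99.7% for shared and 99.6% for RARα-only peaks. They were 77.2% and 79.2% in the fifth decile, and 32.7% and 24.6% in the lowest. The part of the score in these shares was not tested. Peaks found in none of the other 4 lists made up 29.9% of RARα-only and 24.1% of RXRα-only peaks, but 1.78% and 1.70% of the shared peaks of RARα and RXRα. The 4 lists were not used to form the classes, although those of the same receptor come from the same antibody target.

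RARβ, the inducible member of the family, was called at most shared sites. Of the shared RARα peaks, 72.1% overlapped a RARβ peak under RA and 38.6% one under the control diet. For RARα-only peaks these values were 11.1% and 7.52%, and for RXRα-only peaks 21.8% and 4.37%. In the RXRα list, overlap with RARβ under RA fell at each score decile, for shared and RXRα-only peaks alike. In the top decile of the RXRα list, 77.5% of the RXRα-only peaks overlapped a RARβ peak under RA, whereas in the lowest decile 6.16% did. Of the shared RXRα peaks, 96.3% did in the top decile and 37.1% in the lowest. In the top decile of the RARα list, 29.5% of the RARα-only peaks did. Most RXRα-only peaks of the top decile thus lay where RARβ was called and RARα was not called under RA. Some lay beside a RARα peak, since 6.30% of RXRα-only and 6.75% of RARα-only peaks were within 500 bp of a peak of the other receptor.

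**Figure D3:**
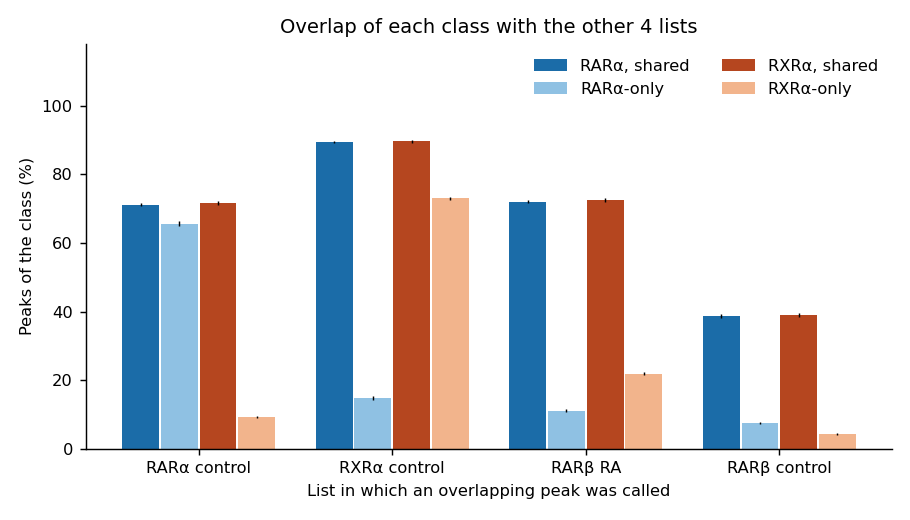
Percentage of the peaks of each class (y axis) that overlap by at least 1 bp a peak of each of the other 4 lists (x axis), with Wilson 95% intervals. The shared classes reach 72.1% and 72.4% in RARβ under RA, against 11.1% of RARα-only and 21.8% of RXRα-only peaks.

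The 10 highest-scoring peaks of each class within 10 kb of a start are named here. The best shared peak was at Crat, which encodes carnitine acetyltransferase (RARα score 637, RXRα score 1172, 0.193 kb downstream of the start). The peaks of Sardh (724 and 1158), Dusp23 (563 and 1013), Gbe1 (821 and 997), Coq10b (543 and 1386), Pgm1 (531 and 1088), Zc3h6 and Narf also lay within 0.424 kb of a start. Gbe1 is the glycogen branching enzyme, Coq10b a coenzyme Q binding protein and Pgm1 a phosphoglucomutase. Those near Fam131c and Olfr854 lay at -4.84 and -8.09 kb, where negative distances are upstream of the start, and the peak near Olfr854 was 226 bp wide. All 10 of these shared peaks were also called in each of the other 4 lists.

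Among the RARα-only peaks, the highest score, 859, was at Mup5, a major urinary protein gene. Mup5 belongs to a family of near-identical copies, so the placement of its reads is uncertain. Slc25a30 (800), Fth1 (758), Tgoln1 (730), Hmga1 (712), Id2 (709) and Ostf1 (684) followed, with midpoints within 0.252 kb of the start. Tgoln1 encodes a protein of the trans-Golgi network, Hmga1 a chromatin protein and Id2 an inhibitor of helix-loop-helix factors. The peaks of Id2 and Ostf1 stood 0.219 and 0.340 kb from the nearest RXRα peak, a short gap. That of Mup5 stood 11.7 kb away. Peaks at Plec (719), Echdc3 (672) and Abca14 (663) completed the 10. All 10 were in the RARα control list and 8 of them in the RARβ list under RA, which Mup5 and Echdc3 were not. Plec and Abca14 were also called for RXRα under the control diet.

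Among the RXRα-only peaks, the highest score, 1510, lay 4.76 kb downstream of the start of Cyp26a1, the RA hydroxylase. It was called in each of the other 4 lists, RARα under the control diet included, and the nearest RARα peak under RA was 0.654 kb away. Ccdc38 (1365), Kyat3 (1359), Fam71e1 (1325), Slc25a47 (1220), Pdk4 (1204), Cmip (1186), Ptges (1151), Gpat4 (1145) and Pla2g12a (1143) followed. Kyat3 is a kynurenine aminotransferase, Pdk4 the kinase that inhibits pyruvate dehydrogenase, Ptges a prostaglandin E synthase and Gpat4 a glycerol phosphate acyltransferase. Slc25a47 had the widest of these peaks, 2743 bp, at -0.534 kb. The other 9 midpoints lay from 1.16 to 9.57 kb from a start. Of the 10 peaks, 9 were in the RARβ list under RA, and the exception was Pdk4.

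Counted by the nearest start at any distance, shared RARα peaks were nearest to 12146 genes, RARα-only peaks to 9702 and RXRα-only peaks to 11080. Shared peaks were most numerous near Lpp (33), Tbl1xr1 (31) and Pik3r1 (27). Pik3r1 encodes a regulatory subunit of phosphoinositide 3-kinase and Tbl1xr1 a subunit of nuclear receptor corepressor complexes. The RXRα-only peaks were most numerous near Foxp1 (39), Adgrl2 (37), Pik3r1 (33), Tbl1xr1 (32) and Bcor (30). Pik3r1, Tbl1xr1 and Adgrl2 thus appear in more than 1 class. For RARα-only peaks the highest numbers were 11 near Gpc5 and Sash1 and 10 near Adgrl2 and Usp24. Gpc5 spans 1433 kb, so its count comes from a large area.

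Genes were next classed by the peaks with midpoints within 10 kb of a start. Of 21536 protein-coding genes, 11345 had a shared peak (52.7%), 905 had peaks of both receptors at separate sites (4.20%), 1481 had RARα only (6.88%), 1166 had RXRα only (5.41%) and 6639 had none. Within 1 kb, the shares were 40.8% shared, 8.05% RARα only and 3.26% RXRα only. With the lists at equal length and 10 kb, they were 46.9%, 11.7% and 3.6%. With the 10000 highest-scoring peaks of each list, 1011 genes had a shared peak, 5397 RARα only and 1267 RXRα only. Peaks of lower rank do not count in that setting, so its genes with RARα only may have an RXRα peak in the full list. Closely spaced genes can hold the same peak.

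Lists of genes of known function were read against these shares. Within 10 kb, the nuclear receptor targets were nearly all in the shared class: 29 of 30 PPARα targets, 14 of 16 LXR targets, 16 of 18 FXR targets, 21 of 21 PXR and CAR targets and 16 of 16 bile acid synthesis genes, against 52.7% of all genes. Within 1 kb the numbers were 20 of 30, 11 of 16, 14 of 18, 12 of 21 and 14 of 16, against 40.8%. With scores of at least 100 and 10 kb they were 21 of 30, 9 of 16, 13 of 18, 17 of 21 and 11 of 16, against 38.0% of all genes. RAR targets stood at 12 of 20 within 10 kb and 10 of 20 within 1 kb. Crabp1, Crabp2 and Stra6, which encode proteins of RA binding and retinol uptake, and Hoxb1 and Ret were among those with no peak of either receptor within 10 kb. Among the other RAR targets, Lrat, the enzyme that esterifies retinol, had a RARα peak only (score 97.6, at 0.02 kb). Cdx1, an intestinal homeobox gene, had an RXRα peak only (511, at -6.78 kb).

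Of the genes of basic cell functions, the shared class within 10 kb held 20 of 20 aminoacyl-tRNA synthetases, 44 of 44 genes of COPI, COPII and SNARE transport, 15 of 15 ATP synthase genes, 45 of 47 splicing genes, 76 of 78 mitochondrial ribosomal protein genes, 46 of 49 complex I genes, 34 of 40 proteasome genes and 20 of 22 cholesterol synthesis genes. Of the 97 genes whose symbols match ribosomal proteins, among which are some Rps6k kinases, 85 were shared. Within 1 kb the shared class held 20 of 20, 41 of 44, 14 of 15, 43 of 47, 71 of 78, 45 of 49, 34 of 40, 18 of 22 and 76 of 97, in the same order. Of all genes, 52.7% were in the shared class within 10 kb and 40.8% within 1 kb.

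The lists also differed in which receptor had the better-ranked peak. For each gene the best rank of a peak within 10 kb was taken in each list, and a gene with no peak was set to 100%. Over all 21536 genes the median was the top 44.4% for RARα and 61.8% for RXRα. PXR and CAR targets, the genes of drug metabolism, had a median of 31.0% for RARα and 5.06% for RXRα, and RXRα had the higher rank at 18 of 21 genes. PPARα targets stood at 14.7% and 5.11%, with RXRα higher at 23 of 30. FXR targets stood at 21.7% and 9.68%, with RXRα higher at 14 of 17 genes bound by both, and bile acid synthesis genes at 30.5% and 11.9%, with RXRα higher at 12 of 16. Secreted liver proteins (25.5% and 12.2%) and amino acid and urea metabolism (22.2% and 10.3%) had the same order.

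The order was opposite at genes of basic cell functions. Ribosomal protein genes had a median of 7.99% for RARα and 45.2% for RXRα, and RARα had the higher rank at 81 of the 88 bound by both. Cholesterol synthesis genes stood at 7.97% and 39.7%, with RARα higher at 20 of 21. Splicing genes (11.7% and 36.96%), COPI, COPII and SNARE genes (13.1% and 42.6%), aminoacyl-tRNA synthetases (14.8% and 38.1%), ATP synthase (8.91% and 33.5%), complex I (10.7% and 29.9%), mitochondrial ribosomal proteins (15.2% and 32.7%) and proteasome subunits (16.1% and 39.4%) had that order too. RARα had the higher rank at 41 of 46 splicing genes bound by both, 38 of 44 transport genes and 13 of 15 ATP synthase genes. It did so at 40 of 48 complex I and 30 of 35 proteasome genes. At 15 of 20 aminoacyl-tRNA synthetases (75%) and 55 of 76 mitochondrial ribosomal protein genes (72.4%) the share was nearer to that of all genes. Over all genes the order was the same, with RARα higher at 68.2% of the 12239 genes bound by both. LXR targets (17.0% and 7.48%) had RXRα higher at 8 of 14, RAR targets (41.4% and 47.3%) were even at 6 and 6, hepatocyte transcription factors (23.2% and 27.9%) had RARα higher at 10 of 21, and circadian clock genes (29.8% and 13.8%) at 8 of 17.

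Genes with 1 receptor within 1 kb of the start are given by list. Most secreted liver proteins had a shared peak, 44 of 56 within 1 kb and 51 within 10 kb, against 40.8% and 52.7% of all genes. Of the 56, 10 had RXRα only within 1 kb and none RARα only, against 3.26% and 8.05% of all genes. The 10 were Alb, Ttr, Ahsg, F11, Serpina1a, Serpina1c, Serpina3k, Itih2, Rbp4 and Mug1. Alb encodes albumin, Ttr and Rbp4 the carriers of retinol in blood, and Serpina1a and Serpina1c are protease inhibitors from a family of similar copies. At 10 kb 5 of them, Alb, Serpina1c, Serpina3k, Rbp4 and Mug1, had RXRα only, which is 8.93% of the list against 5.41% of all genes. The best RXRα scores there were 412 for Alb, 671 for Serpina3k, 504 for Rbp4 and 439 for Mug1. Amino acid and urea metabolism had 26 of 35 with a shared peak within 1 kb and 31 within 10 kb. Within 1 kb 4 of 35 had RXRα only, namely Cps1 and Ass1 of the urea cycle, Hpd of tyrosine breakdown and Mat1a of methionine metabolism. RARα only was seen there at 2 of 35, Slc25a15 and Gnmt. Ass1, Hpd and Mat1a had no RARα peak within 10 kb, and their best RXRα scores were 956, 449 and 480. These 3 are 8.57% of the list, against 5.41% of all genes with RXRα only within 10 kb.

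RARα alone within 1 kb was seen in 7 lists of basic functions in which no gene had RXRα alone. The counts were 4 of 47 splicing genes (Snrpb, U2af1, Sf3a1 and Lsm2), 3 of 44 transport genes (Sar1b, Arf5 and Stx5a), 6 of 78 mitochondrial ribosomal protein genes, 4 of 40 proteasome genes (Psmb5, Psmb8, Psmd10 and Psmd14), 3 of 49 complex I genes, 1 of 15 ATP synthase genes and 3 of 22 cholesterol synthesis genes. Their shares, from 6.12% to 13.6%, lie around the 8.05% of all genes. The cholesterol genes included Idi1, an isopentenyl diphosphate isomerase (score 495), and Nsdhl, a sterol dehydrogenase (70.5). Aminoacyl-tRNA synthetases had 0 of 20 with either receptor alone. Bile acid synthesis had 1 of 16 and the ribosomal list 10 of 97 with RARα only and 1 of 97, Rpl32l, with RXRα only.

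The shares to read the next counts against are 8.05% of all genes with RARα only and 3.26% with RXRα only within 1 kb. Of 30 PPARα targets, 4 were of each kind. Cpt1a, Cyp4a10, Cyp4a14 and Mgll had RARα only there, and Cpt1b, Acot1 and Cidec were among those with RXRα only. Cpt1a carries fatty acids into mitochondria. The 16 LXR targets had Abcg1 with RARα only and Acaca with RXRα only, and the 18 FXR targets had Slc51b, a bile acid exporter, with RXRα only (score 899). The 21 PXR and CAR targets had Cyp2b10 and Gsta2 with RARα only and Gstm3 with RXRα only. Among 25 hepatocyte transcription factors, Foxa1 and Onecut2 had RARα only within 1 kb, and Prox1, Gata4 and Nr3c1 had RXRα only within 10 kb, against 5.41% of all genes. Among 19 clock genes, Per2 had RARα only within 1 kb, and Per1 and Dbp had RXRα only.

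**Figure D4:**
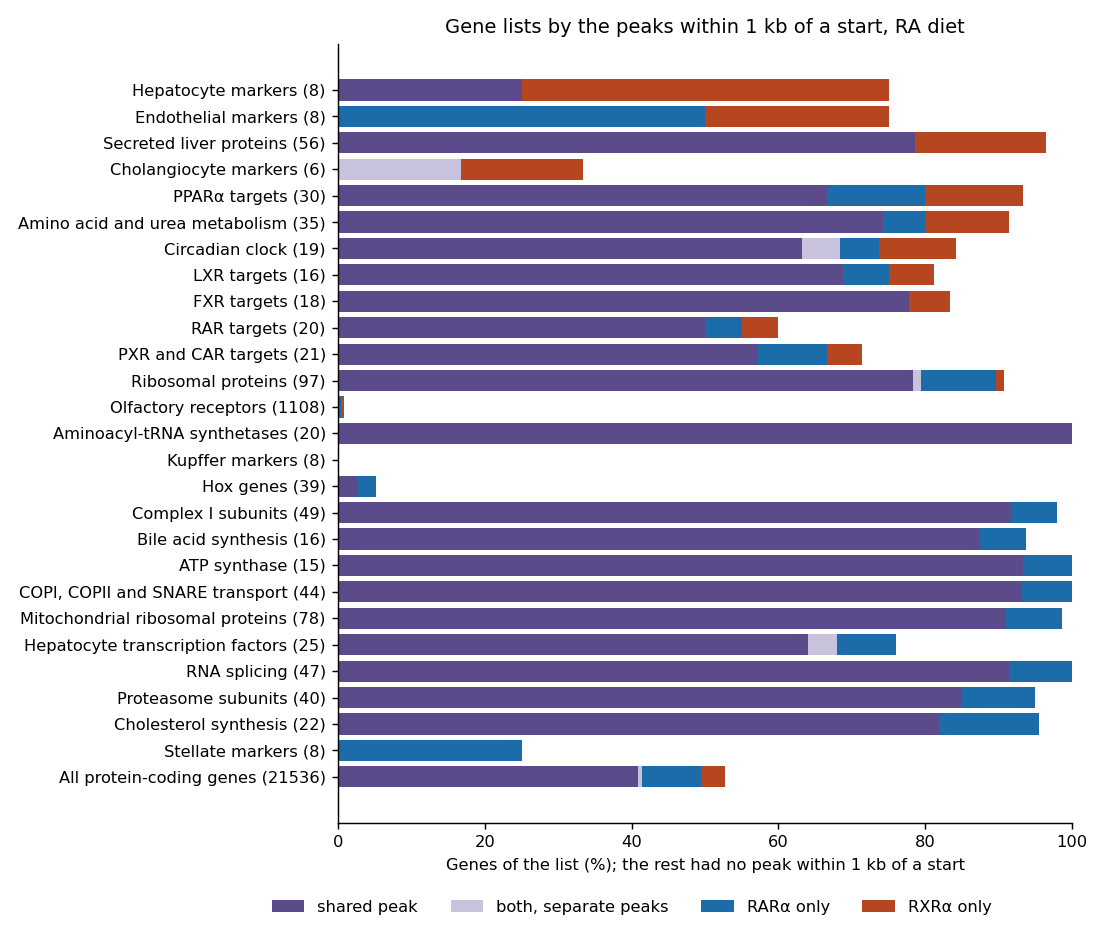
Percentage of the genes of each list (x axis) by the class of peaks within 1 kb of a start, with the number of genes in brackets and all protein-coding genes in the lowest bar. Secreted liver proteins show 78.6% with a shared peak, 17.9% with RXRα only and none with RARα only. The lists of basic cell functions show shared peaks in 78.4% to 100% of their genes, beside 40.8% of all genes.

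Markers of liver cell types were read in the same way, since the tissue was whole liver. Of 8 hepatocyte markers, 7 had a shared peak within 10 kb and Alb had RXRα only, and within 1 kb 4 had RXRα only and 2 a shared peak. Those 4, Alb, Ttr, Serpina1a and Cps1, are also counted in the lists above. The classes go by midpoints: a RARα-only peak covers the start of Apoa1, but its midpoint lies at 2.22 kb. Of 8 endothelial markers, 4 had RARα only within 1 kb, namely Stab2 (score 56.6), Kdr (83.7), Clec4g and Cdh5, and 2, Pecam1 and Oit3, had RXRα only, against 8.05% and 3.26% of all genes. Within 10 kb 3 had RARα only and 1 RXRα only, against 6.88% and 5.41% of all genes. With scores of at least 100 it was 3 and 3, against 11.1% and 6.89%. Of 8 stellate cell markers none had a shared peak within 10 kb, where 52.7% of all genes did. Lrat (97.6) and Col1a1 (162) had RARα only, and Pdgfrb (511) and Hand2 (67.1) had RXRα only, against 6.88% and 5.41% of all genes. The score of Pdgfrb is, as printed, that of Cdx1 among the RAR targets, so both genes may rest on the same peak. None of 8 Kupffer cell markers had a peak within 1 kb, where 47.3% of all genes had none. Within 10 kb Cd68 had a shared peak and Csf1r and Timd4 had RXRα only, against 52.7% and 5.41% of all genes. Of 6 cholangiocyte markers, 4 had no peak within 10 kb, against 30.8% of all genes. The part of each cell type in the peaks was not tested.

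Olfactory receptor genes, which act in the nose, and the developmental Hox genes were read last. Of 1108 olfactory receptor genes, 1009 had none within 10 kb, 31 were shared, 34 had RARα only and 32 had RXRα only. Of all genes, 30.8% had none, 52.7% were shared, 6.88% had RARα only and 5.41% had RXRα only. Of 39 Hox genes, 13 were shared (against 52.7% of all genes), 9 had RARα only (against 6.88%) and none had RXRα only (against 5.41%). The 9 were Hoxa13, Hoxb5, Hoxb7, Hoxb8, Hoxb9, Hoxc5, Hoxd3, Hoxd8 and Hoxd9. They rest on fewer peaks than genes, since Hoxb7, Hoxb8 and Hoxb9 had the same best peak (score 180), as did Hoxd3, Hoxd8 and Hoxd9 (273). With scores of at least 100, 4 were shared and 15 had RARα only, against 38.0% and 11.1% of all genes. Within 1 kb only Hoxa5 was shared and Hoxc5 had RARα only, against 40.8% and 8.05% of all genes.

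A fixed panel of 30 genes was examined peak by peak. Scores are in the order RARα, RXRα where both are given, each on the scale of its own list. Within 10 kb 27 had a shared peak, against 52.7% of all genes, Cyp4a14 had both receptors at separate sites, and Crabp2 and Stra6 had none. At Cyp26a1 the RARα peak at the start scored 490 (top 3.68% of its list) and the overlapping RXRα peak 84.9 (top 73.4%). RXRα-only peaks scored 758 at -1.93 kb and 1510 (top 0.228%) at 4.76 kb downstream, and a RARα-only peak scored 253 at 6.31 kb. At Rarb both receptors had high-scoring peaks at the start, 481 for RARα (top 3.94%) and 950 for RXRα (top 1.87%). At Dhrs3, which reduces retinal, the scores at the start were 149 and 386. At Rara, RARα-only peaks scored 260 and 324, and an RXRα-only peak 0.224 kb from a start scored 663.

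Genes of fatty acid use had their strongest RXRα peaks away from RARα in several cases. At Pdk4, a shared peak at the start scored 286 for RARα and 443 for RXRα, and an RXRα-only peak at -2.60 kb scored 1204. At Cyp4a14, RARα had a peak at the start with a score of 52.4 and RXRα a separate peak at -1.59 kb with a score of 663. At Cpt1a, RARα alone had a peak at 0.519 kb (160), and the shared peak further downstream scored 123 and 728. At Angptl4, an inhibitor of lipoprotein lipase, the peak nearest the start scored 588 (top 1.69%) for RARα and the RXRα peak overlapping it 555 (top 8.24%). At Plin2, a lipid droplet protein, the shared peak at the start scored 477 (top 4.09%) and 167 (top 44.1%), and an RXRα-only peak at -1.93 kb scored 394.

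Sterol and bile acid genes had shared peaks at the start. Abca1, the cholesterol exporter, had scores of 592 (top 1.64%) and 605 (top 6.83%), and Abcg5 had 482 and 745. Mylip, an LXR target that encodes a ubiquitin ligase, had 380 for RARα (top 8.37%) and 55.9 for RXRα (top 94.9%), and an RXRα-only peak of 192 at 1.94 kb. Abcb11, the bile salt export pump, had 139 for RARα (top 44.3%) and 1343 for RXRα (top 0.439%). Nr0b2, which encodes the repressor SHP, had 363 (top 9.50%) and 1164 (top 0.874%). Cyp7a1, the rate-limiting enzyme of bile acid synthesis, had 199 and 713 at the start, and an RXRα-only peak of 722 at -3.03 kb. At Apoa1 a RARα-only peak 4879 bp wide (score 405) and an RXRα-only peak 3650 bp wide (269) lay side by side.

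**Figure D5:**
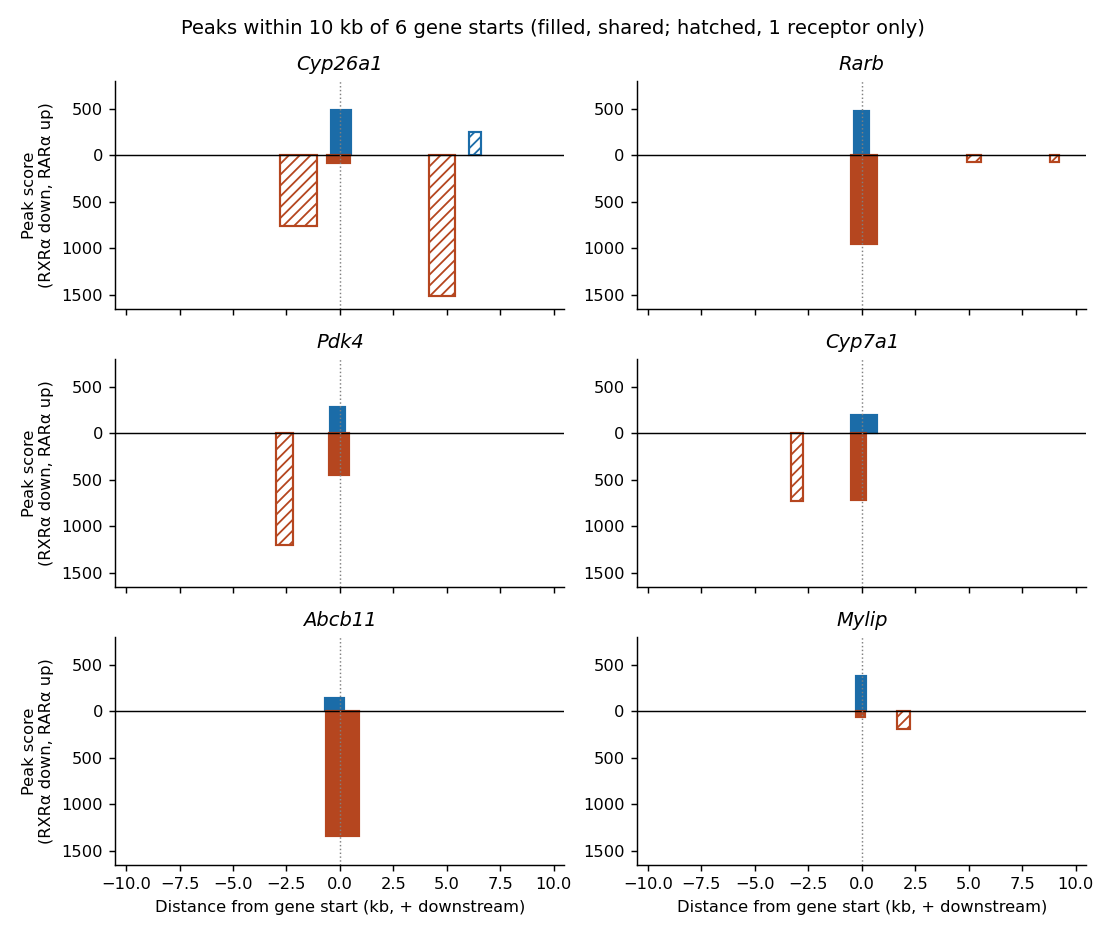
Peaks within 10 kb of the start of 6 panel genes, with distance from the start in kb on the x axis and peak score on the y axis (RARα upward in blue, RXRα downward in orange, each on the scale of its own list). Filled bars are shared and hatched bars belong to 1 receptor, bar width is peak width, and the RXRα-only bars of 1510 at Cyp26a1 and 1204 at Pdk4 stand out.

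The promoters whose start lay inside a peak differed in sequence between the classes. The window was 250 bases before to 50 after the start, and 7321 promoters lay in a shared pair of peaks, 1498 in a RARα-only peak, 459 in an RXRα-only peak and 11334 in no peak, of 21263 in all. Median GC content was 61.7%, 61.7%, 56.0% and 51.0% in that order. The remaining 651 promoters lay in a shared peak of 1 receptor only, and are counted below only among all promoters. The half-site AGGTCA was present on either strand in 13.2% of shared, 8.74% (interval 7.42 to 10.3) of RARα-only and 19.0% (15.6 to 22.8) of RXRα-only promoters, against 14.7% of all and 16.6% (15.9 to 17.3) of those in no peak, which lies above the shared class and inside the RXRα-only interval. The ETS core CCGGAAG was present in 23.1% of shared, 16.2% of RARα-only and 8.28% of RXRα-only promoters, against 11.6% of all and 3.41% of those in no peak. The GC box GGGCGG was present in 68.6%, 66.0% and 48.8%, against 46.2% of all, and the TATA box TATAAA in 5.90%, 8.28% and 9.59%, against 12.6%. The NRF1 core GCGCATGCG was present in 4.73%, 3.67% and 2.40%, against 2.35%. The CCAAT box CCAAT was present in 40.5%, 40.6% and 35.9% (38.2% of all), the E-box CACGTG in 11.6%, 8.48% and 8.93% (7.84%), and the CRE core TGACGTCA in 3.797%, 3.47% and 1.961% (2.23%). The classes differ in GC content, and its part in these shares was not tested.

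Half-sites were more frequent at high RXRα ranks and at low RARα ranks. Among the shared promoters, the 1831 with the highest RXRα scores held the half-site in 19.0% (17.2 to 20.8) and the 1830 with the lowest in 9.29% (8.04 to 10.7). By RARα score the highest 1831 held it in 9.83% (8.55 to 11.3) and the lowest 1830 in 16.7% (15.0 to 18.4). Median GC content was 61.7% and 61.0% in the RXRα groups and 63.7% and 59.3% in the RARα groups, highest scores first.

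Complete repeats were rare in all classes. With the relaxed half-sites used above, a DR1 was found in 21 shared, 1 RARα-only and 5 RXRα-only promoters, and in 39 of all 21263 (0.183%). The RXRα-only promoters were those of Bco1, Enkd1, Smyd5, Sec31b and 4933405L10Rik. Enkd1 and 4933405L10Rik rested on the same peak (score 132), so these promoters have fewer peaks than genes. A DR5 was found in 17 of all promoters (0.0800%), 3 of which lay in shared peaks, those of Cyp26a1, Rarb and Blvrb. Blvrb encodes a biliverdin reductase, and its peaks scored 115 for RARα and 314 for RXRα. The other 14 DR5 promoters lay in no peak. A DR2 was found in 7 shared, 1 RARα-only and 2 RXRα-only promoters, and in 19 of all 21263 (0.0894%), 9 of which lay in no peak. A DR4 was found in 9 of all promoters (0.0423%), of which 1 was shared and 8 lay in no peak. Such matches describe the letters of the window and do not show a site.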

How the data were processed

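ChIP-seq of RARα, RXRα and RARβ was performed on mouse liver under a control or RA diet. The authors aligned single-end 35 bp reads with Bowtie to mm10 and called peaks with MACS, and CASAVA 1.4 is named in the submitters' processing notes. The 6 deposited files hold 1 peak list each, with the caller's score, a multiple of the negative log10 of the p-value that the authors did not normalize between libraries and that never lay under 50. Scores were therefore compared between lists only as ranks. The labels give 1 day of diet, whereas the study's methods give a longer treatment, so the duration is not settled. The input library was not analysed here. The study gives read totals by receptor only, so the depth per diet is not given in the sources used here.

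Overlaps of at least 1 bp were computed in Python 3.11.15 with pandas 2.3.3 and numpy 2.4.6, checked against bedtools 2.31.1 and tested on simulated peaks. Intervals are Wilson intervals at 95%. Gene starts came from the RefSeq tables of GRCm38.p6, with all starts of 17492 protein-coding genes, and for 4044 more the end of the gene span given by the strand in GENCODE M1. In 351 genes no strand was found and they were left out. Peaks on chromosome Y reach 90840095, past the last GENCODE M1 feature there at 2552957, so no NCBIM37 coordinates were used, and motifs around peak midpoints were not run.

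Named genes were the 10 highest-scoring peaks of each class within 10 kb of a start (1 per gene, shared peaks ranked by the worse of their 2 ranks), the 5 genes nearest to most peaks of each class, a panel of 30 genes, and list members in the rarer class. Nfe2l2 and Bco1 were chosen for printing after their values were seen, by the best shared promoter with an ETS core and the highest-scoring RXRα-only promoter with a DR1. The members and the 27 gene lists were chosen with earlier results of these data known. C5 and Atp5f1 of the lists were not found, and some members are not reported here by name. With 1 library per group no test was run. The alternatives tried were equal list length, a score of at least 100, an overlap of 25% of each width, the 10000 best peaks, a gap of up to 500 bp, autosomes only, 1 kb, the nearest start, and starts of genes of all kinds, and 300 bp windows were added after seeing the data.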

Additional observations from a re-analysis of the deposited data

How the results depend on the processing

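With equal list length sharing was lower for RARα (54.5%) and higher for RXRα (53.3%). It was lower for both with scores of at least 100 (51.7% and 35.0%), an overlap of 25% of each width (61.7% and 45.5%), 300 bp windows (57.3% and 42.4%) and the 10000 best peaks (14.1% of both), and higher with gaps of up to 500 bp (65.7% and 49.9%). Autosomes alone gave 63.6% and 46.8%. The share within 1 kb of a start, for shared RARα, RARα-only and RXRα-only peaks, was 29.1%, 17.1% and 3.44% at equal length, 32.9%, 15.9% and 6.17% with genes of all kinds, and 45.7%, 49.8% and 4.78% in the 10000 best peaks. With scores of at least 100 it was 41.5% and 22.9% for the RARα classes, and with 25% of width 4.69% for RXRα-only. The gene counts moved over 1.5 times to 702 with RXRα only within 1 kb, to 2524 with RARα only and 776 with RXRα only at equal length, to 2383 with RARα only at scores of at least 100, and to 1011 shared and 5397 RARα only in the 10000 best peaks. The overlap with the same receptor's control list, for shared RARα, RARα-only, shared RXRα and RXRα-only peaks, was 70.0%, 68.0%, 95.3% and 85.8% at equal length, 87.2%, 88.8%, 96.4% and 92.2% at scores of at least 100, and 70.6% and 64.8% for the RARα classes with 25% of width. Equal length, the score limit and the 10000 best peaks keep fewer peaks by construction. The classes were formed anew between the cut lists, so a receptor-only peak there may overlap a removed peak of the other receptor. Of 324 recomputed counts of genes by list and class, 238 stayed within 1.5 times, and of the 86 that did not, 27 were lower and 59 higher.

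No paired analysis was possible because each receptor and diet has 1 library, and no replicate was left out for the same reason. The read depth per library and diet is not known, although the study gives the higher total to RARα, so differences in list length from depth, antibody and binding cannot be told apart here. A peak absent from a list was not called there, which does not show an absence of binding.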
